A study of Mus musculus with 502 samples.

Results

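The genes described here are the immunoglobulin constant region genes Ighm, Ighd, Igkc, Iglc1, Iglc2 and Iglc3, 6 of the 46603 gene rows measured. They were chosen by name, and they were followed in single Cd45+ cells from mouse kidney, first in the cells that carried at least 5 reads of Cd79a and at least 5 reads of Cd79b, and then in all other cells. This rule found 77 B cells among 502 cells (15.3%, exact Clopper-Pearson 95% interval 12.3 to 18.8) and left 425 other cells. Cd79a and Cd79b encode the signalling chains that sit beside the antibody in the B cell receptor, so neither of them is a member and the members' own levels did not enter the choice of cells.

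Immunoglobulin is built from a heavy and a light chain, and each chain joins a variable region to a constant region. A naive B cell makes IgM from Ighm and IgD from Ighd, which follow each other on the chromosome and are read from the same long transcript by alternative splicing, with IgD appearing as the cell matures. The light chain comes either from the kappa locus, with the single constant gene Igkc, or from the lambda locus, with Iglc1, Iglc2 and Iglc3, and a B cell is as a rule committed to one of them; most mouse B cells use kappa.

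The study asked how storage of the whole organ in the cold changes single-cell transcriptomes. Kidneys of wild-type CD1 mice, an outbred stock, about 3 weeks old, were taken without perfusion, so that blood cells could be among those sorted, and were dissociated at once (fresh) or kept whole in the preservation solution HTS-FRS at 4 °C for 6 h or for 1 to 4 days. Propidium iodide negative, Cd45+ cells were sorted, and cDNA was made by the full-length SmartSeq2 protocol. Per the methods, both kidneys of a mouse were combined up to day 2 and parts of kidneys at days 3 and 4, and no label names an animal. A timepoint was therefore treated as 1 sample, and no p-value was computed over cells.

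The cells fell into 3 library pools, called A, B and C here after the pool number in their names. The fresh cells were 75 in pool A and 81 in pool B, the 76 cells of 6 h and the 78 of day 2 were in pool A, the 75 of day 1 and the 82 of day 3 in pool B, and the 35 of day 4 were spread over all 3 pools. Total gene counts ran from 1759 to 1895431 per cell, with a median of 695188, and by timepoint and pool the median ran from 417385 to 1128166. Ptprc, which encodes Cd45, was read in 70 of the 77 B cells and in 386 of the 425 others. Other B cell markers were read in most of the 77, Cd74 in 71, Ms4a1 in 58 and Pax5 in 50, against 260, 8 and 1 of the 425 others.

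B cells were found at every timepoint. All 17 fresh B cells were in pool B (20.99% of its 81 fresh cells, 12.7 to 31.5), and none was among the 75 fresh cells of pool A, for which the upper limit is 4.80%. After 6 h there were 9 B cells. Day 1 had 14 (18.7%, 10.6 to 29.3) and day 2 had 30 (38.5%, 27.7 to 50.2), whereas days 3 and 4 had 5 and 2. Because the B cells of 6 h and day 2 were in pool A and the fresh ones in pool B, pool and preservation cannot be told apart in those comparisons, while fresh, day 1, day 3 and day 4 B cells all came from pool B. Whether the fresh cells of pools A and B came from 1 sort or 1 mouse is not given in the labels. With no animal named, each timepoint was treated as a single sample, so a difference between timepoints cannot be told apart from one between samples.

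Among the 77 cells, 3 carried at least 5 reads of the T cell gene Cd3e or the macrophage gene C1qb, and none had as many of the neutrophil gene S100a8. Cd68, a lysosomal gene abundant in macrophages, had at least 5 reads in 8 of the 77, the same 3 among them. The 3 were the 6 h cell in well D9, with 5288 reads of C1qb beside only 20 of Cd79a, the day 2 cell in well D2, with 733 of C1qb and 83 of Cd3e, and the fresh cell in well G1, with 28 of C1qb. A further cell, in well E7 of day 3, had 2167 reads of the natural killer cell gene Ncr1 beside 32 of Cd79a, and is the lowest of the day 3 cells on both Ighm and Igkc. The values without the first 3 cells are given with the alternatives, and doublets were not called.

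The constant regions are shown first, since the values of single lambda genes turn on whether their reads can be told apart. The stretches are the first coding bases of each gene in GRCm38, 5′ to 3′, and in Iglc1 and Iglc3 the capitals mark bases that differ from Iglc2 in a global alignment. The genes lie on the minus strand at chr16:19061832-19062071 for Iglc1, chr16:19198614-19198853 for Iglc2 and chr16:19065442-19065681 for Iglc3.
Iglc1: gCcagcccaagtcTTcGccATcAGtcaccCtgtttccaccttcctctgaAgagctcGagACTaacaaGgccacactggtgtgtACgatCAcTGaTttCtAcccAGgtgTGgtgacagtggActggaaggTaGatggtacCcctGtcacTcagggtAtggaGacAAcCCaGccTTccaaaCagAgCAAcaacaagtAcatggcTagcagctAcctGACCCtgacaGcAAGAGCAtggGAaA
Iglc2: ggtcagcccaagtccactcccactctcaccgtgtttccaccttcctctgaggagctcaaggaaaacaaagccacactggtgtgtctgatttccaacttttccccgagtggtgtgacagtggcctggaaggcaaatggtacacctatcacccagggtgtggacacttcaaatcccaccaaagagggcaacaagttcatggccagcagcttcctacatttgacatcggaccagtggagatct
Iglc3: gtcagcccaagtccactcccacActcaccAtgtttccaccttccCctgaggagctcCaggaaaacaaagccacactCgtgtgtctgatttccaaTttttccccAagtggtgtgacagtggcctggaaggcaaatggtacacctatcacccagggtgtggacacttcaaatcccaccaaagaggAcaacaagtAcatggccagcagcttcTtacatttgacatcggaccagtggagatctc

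Iglc2 and Iglc3 were 96.2% identical over their coding parts, with 11 mismatches, whereas Iglc1 shared 72.3% with Iglc2 and 73.2% with Iglc3. The mismatches lay close enough together that only 5 of the 384 stretches of 75 bases in Iglc2, and 5 of the 378 in Iglc3, occurred in another lambda gene, and 0 of the 380 in Iglc1. Reads had been trimmed to 75 bases, so most single reads could be placed on 1 of the 3 genes, but values of Iglc2 and Iglc3 are still less certain than those of the others. Against Igkc the lambda genes shared 51.4% to 52.9%. An exon of the antisense gene 2010309G21Rik overlaps Iglc3 on the other strand, while Iglc1 lies within the span of that gene but in none of its exons, and since the counting ignored strand, reads from the 2 strands cannot be told apart there.

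Igkc and the heavy chain genes lie elsewhere, and their first coding bases are given in lower case throughout because differences were marked only among the lambda genes. Ighm and Ighd were not aligned with any member. Igkc is on the plus strand of chromosome 6 (chr6:70726435-70726524 for the stretch shown), and Ighm (chr12:113422641-113422730) and Ighd (chr12:113416235-113416324) are neighbours on the minus strand of chromosome 12.
Ighm: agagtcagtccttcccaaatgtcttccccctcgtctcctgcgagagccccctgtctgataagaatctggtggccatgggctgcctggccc
Ighd: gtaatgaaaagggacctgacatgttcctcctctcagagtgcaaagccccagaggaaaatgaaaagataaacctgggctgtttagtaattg
Igkc: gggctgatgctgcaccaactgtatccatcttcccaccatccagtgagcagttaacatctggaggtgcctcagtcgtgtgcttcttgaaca

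In each of the 77 B cells both Ighm and Igkc were read. Ighm was the highest member by read number, with a median of 7506 rpm (reads per 1000000 gene counts) over the cells and a range of 697 to 23983. Igkc had a median of 3104 rpm, from 49.9 to 7970. Ighd, with a median of 1552 rpm, was read in 66 cells and reached 8865 rpm, but had no read in the other 11. The lambda genes were lower and more often absent, with a read of Iglc3 in 62 cells (median 536 rpm), of Iglc2 in 61 (median 1072 rpm) and of Iglc1 in 37 (median 0). The 2 cells at the bottom of both Ighm and Igkc were the 6 h cell in well D9 and the day 3 cell in well E7, and these also had few Cd79 reads. The D9 cell had the same most read kappa and heavy chain variable genes as the 6 h cell in well D10, with 68 against 5064 Igkc reads. The E7 cell shared its own with the fresh cell in well G1, with 58 against 3020 Igkc reads. Where the immunoglobulin reads of the D9 and E7 cells came from was not tested, and both cells stay among the 77.

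Divided by exon length, the order changed. Summed over the 77 cells, Igkc had 6259 rpm per kilobase of exon, Ighm 4341, Iglc2 1853, Iglc3 1272, Ighd 1216 and Iglc1 348. Ighm and Ighd have nearly the same exon length, 1886 and 1900 bases, so shares of reads between them are close to shares per length. No other heavy chain constant gene was at a comparable level. Ighg3 had 348 reads in 2 B cells, and Igha, Ighe, Ighg1, Ighg2b and Ighg2c had none. Of the 7 genes listed for antibody-secreting cells, Mzb1 was read in 44 B cells, Irf4 in 42, Xbp1 in 16, Sdc1 in 4 and Prdm1 in 2. Tnfrsf17 had no read in B cells and Jchain none in any cell.

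**Figure D1:**
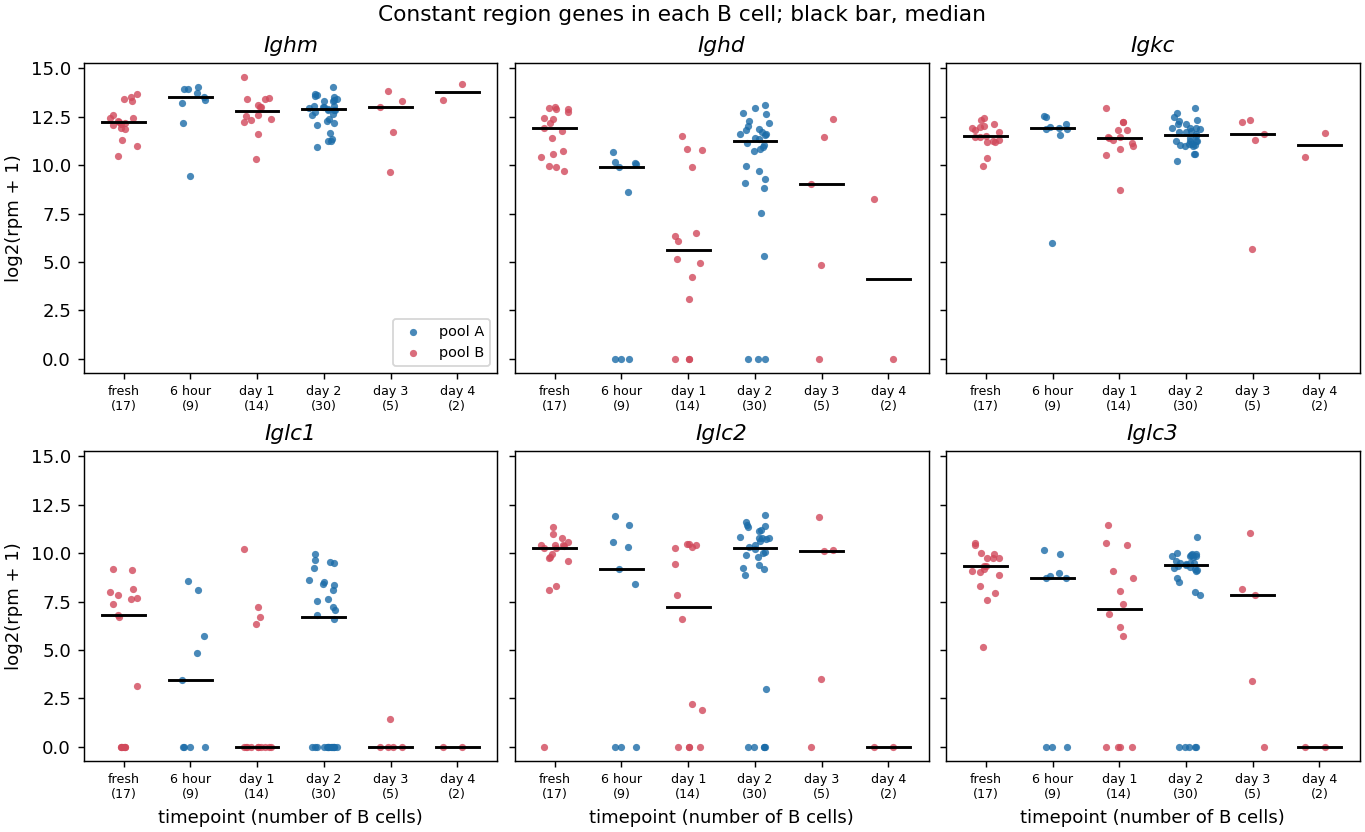
Level of each constant region gene in each B cell, as log2(rpm + 1), by timepoint, with the number of B cells in parentheses, points coloured by library pool and a black bar at the median. Ighm and Igkc are read in every cell, with 1 cell of 6 h and 1 of day 3 far below the others on Igkc, while Ighd lies high in all 17 fresh cells and spreads down to 0 in the preserved ones.

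Ighm, the heavy chain of IgM, was present at high level throughout. Fresh cells ran from 1410 to 12948 rpm with a median of 4890. At day 1 the median was 7139 rpm and the range 1279 to 23983, and at day 2 they were 7620 and 1970 to 16782. Preserved and fresh cells overlapped widely, yet the middle of the distribution was higher, with 11 of 14 day 1 cells and 23 of 30 day 2 cells above the fresh median. At 6 h the 9 cells ran from 697 to 16572 rpm with a median of 11806, and 4 of them lay above the highest fresh cell. The 5 cells of day 3 had 814, 3408, 8094, 10081 and 14521 rpm, and the 2 of day 4 had 10772 and 19060 rpm.

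Ighd, the heavy chain of IgD, lay lower in most preserved cells than in fresh ones. All 17 fresh cells held it, from 820 to 8289 rpm with a median of 3866. At day 1, in the same pool, 3 of 14 cells had no read, the median was 50.2 rpm and the highest cell 2865 rpm. All 14 lay below the fresh median and 10 lay below the lowest fresh cell. At 6 h the values ran from 0 to 1667 rpm with a median of 952, so all 9 cells were below the fresh median and 4 below the lowest fresh cell. Day 2 was in between, with 0 to 8865 rpm and a median of 2449, and there 8 of 30 cells fell below the fresh minimum and 7 stood above the fresh median. The 5 day 3 cells had 0, 27.5, 525, 2847 and 5363 rpm and the 2 day 4 cells 0 and 300.3 rpm. The median total count of B cells was 530891 for the fresh group and 985258 for 6 h, and for days 1 to 4 in order it was 557475, 893016, 707093 and 330506.

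The share of Ighd in the sum of Ighm and Ighd reads puts both genes of 1 cell on the same footing, and every B cell had the 20 heavy chain reads asked for. It ran from 12.9% to 84.9% in fresh cells with a median of 41.4%. It was 0% to 59.2% at day 1 with a median of 0.453%, and 10 of the 14 cells were under 5%, against 0 of 17 fresh cells. These 10 day 1 cells still had Ighm between 3174 and 23983 rpm. At 6 h the share ran from 0% to 15.2% with a median of 5.66%, and at day 2 from 0% to 71.4% with a median of 25.3%. In all, 11 cells had no Ighd read and 8 had more Ighd than Ighm reads, 4 of them fresh, 1 of day 1 and 3 of day 2. The day 3 cells had 0%, 3.27%, 6.09%, 34.7% and 45.5%, the day 4 cells 0% and 2.71%. Summing reads instead of taking the median over cells gave 40.9% for fresh, 5.95% for day 1 and 26.7% for day 2, and at day 1 the reads came mostly from the 4 of 14 cells with a share over 10%.

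**Figure D2:**
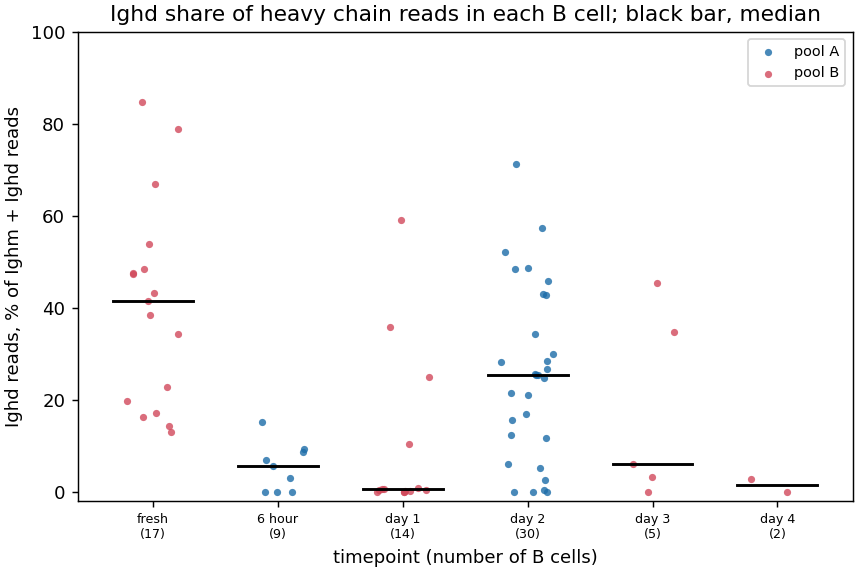
Ighd reads as a percentage of Ighm plus Ighd reads in each B cell by timepoint, with the number of B cells in parentheses, points coloured by library pool and a black bar at the median. Fresh cells all lie above 12%, 10 of 14 day 1 cells lie at the bottom, and day 2 cells fill the range between.

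Over the 77 cells Ighm and Ighd levels were nearly unrelated (Spearman's rho -0.16 on log2(rpm + 1), and -0.13 in fresh, -0.04 in day 1 and -0.05 in day 2 cells). Correlations over cells are given as a description, since the B cells of a timepoint share a pool and their tissue source.

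The reads of all B cells of a timepoint were then summed and compared with the summed fresh B cells, for the timepoints with at least 10 B cells and the genes with at least 50 reads in both sums. All 6 members passed this minimum at day 1 and at day 2. At day 1, Ighd stood at 553 rpm against 4314 rpm in fresh cells, a log2 ratio of -2.96 or 7.81-fold lower, and 3.19% of the 4259 genes compared had a lower ratio. Iglc2 was 2.48-fold lower, at 483 against 1197 rpm. Thus 2 of 6 members were at least 2-fold lower, where 23.8% of all genes compared were, and 0 of 6 were at least 2-fold higher, where 25.2% were. With 6 genes, nothing about the members as a set is read from these counts. The log2 ratios of the others were 0.48 for Ighm, 0.02 for Igkc, -0.17 for Iglc1 and -0.35 for Iglc3, and the median of all genes compared was -0.02. With 1 sample a side these ratios carry no test, and single cells weighed heavily in some. The cell in well H7 gave 28.1% of the day 1 Ighm reads and 85.8% of the Iglc1 reads, and without it the log2 ratio of Ighm was 0.16, that of Igkc -0.23 and that of Iglc1 -2.83. Iglc3 was at -1.11 without the cell in well D7, so that Iglc1 and Iglc3 each stood more than 2-fold lower without their highest day 1 cell. Ighd without its highest day 1 cell was at -3.40, and Iglc2 at -1.60. Only day 1 cells were left out and all fresh cells were kept, so each of these ratios could only move down.

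At day 2, where the pool differed as well, no member reached 2-fold in either direction, against 27.9% of 5283 genes lower and 21.9% higher. Ighd was 1.53-fold lower (log2 ratio -0.61), Ighm had 0.31, Igkc 0.02, Iglc1 0.44, Iglc2 0.15 and Iglc3 -0.21, beside a median of -0.11 over all genes compared. Day 1 and day 2 share the same 17 fresh cells as their base, so their ratios are not independent of each other.

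Genes that accompany B cell maturation were set beside Ighd, from lists chosen with earlier results of these data known. In the list of mature, marginal zone and B1 genes, 4 of 9 could be compared at day 1, 2 were at least 2-fold lower, none was at least 2-fold higher, and the median log2 ratio was -1.44. Over all genes compared 23.8% were lower and 25.2% higher by that much, so with 4 genes nothing is read from the list as a whole. Fcer2a, the low-affinity IgE receptor CD23 of mature follicular B cells, had a log2 ratio of -3.12 and was read in 15 of 17 fresh but 4 of 14 day 1 cells. Cr2, the complement receptor CD21, had -3.41, with reads in 9 fresh cells and 1 day 1 cell. Zfp318, which is needed for IgD expression, was at 0.24 in the sums, but its day 1 reads came from 1 cell, against 8 of 17 fresh cells with a read. Ccr7, the chemokine receptor for lymph node homing, was at 0.60.

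In the list of early and transitional B cell genes, 2 of 7 could be compared, and both were at least 2-fold higher at day 1, beside 25.2% of all genes compared. Vpreb3, a gene of developing B cells, had a log2 ratio of 2.40, with a read in 6 of 14 day 1 and 5 of 17 fresh cells. Cd24a, whose surface protein is high on transitional cells, had 2.04, with a read in 11 day 1 and 8 fresh cells. The other 5 had fewer than 50 reads in at least 1 of the sums, and Vpreb1, Igll1, Rag1 and Rag2 had no read in fresh or day 1 B cells. Among the 7 general B cell genes that the choice of cells did not use, the median was -0.37 and only H2-Aa, an MHC class II chain, passed 2-fold (-1.64). Among 8 genes of receptor signalling the median was 0.10, with Btk at -2.35 and Fcgr2b at -1.09 below and Lyn at 1.05 above 2-fold. Over all genes compared 23.8% were at least 2-fold lower and 25.2% at least 2-fold higher, so nothing is read from these lists as a whole.

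The same lists were compared at day 2, and the 2 days were not tested against each other. Fcer2a was at -0.37 with reads in 25 of 30 cells, Cr2 at -1.39, Vpreb3 at 2.28 and Cd24a at 1.23. The mature list had 2 of 5 compared genes at least 2-fold lower, where 27.9% of all genes compared were, and a median of -0.37. The 2 genes were Cr2 and Cd9, and the ratio of Cd9, -3.97, rests on 1 cell on each side. The 7 general B cell genes had a median of -0.72, beside -0.11 over all genes compared. Of these 7, 2 were at least 2-fold lower, Pax5 at -1.85 and Ebf1 at -1.31. Of the 8 signalling genes only Plcg2, at 1.66, passed 2-fold. Over all genes compared 27.9% were at least 2-fold lower and 21.9% at least 2-fold higher. With so few genes, nothing is read from any of these lists as a whole.

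**Figure D3:**
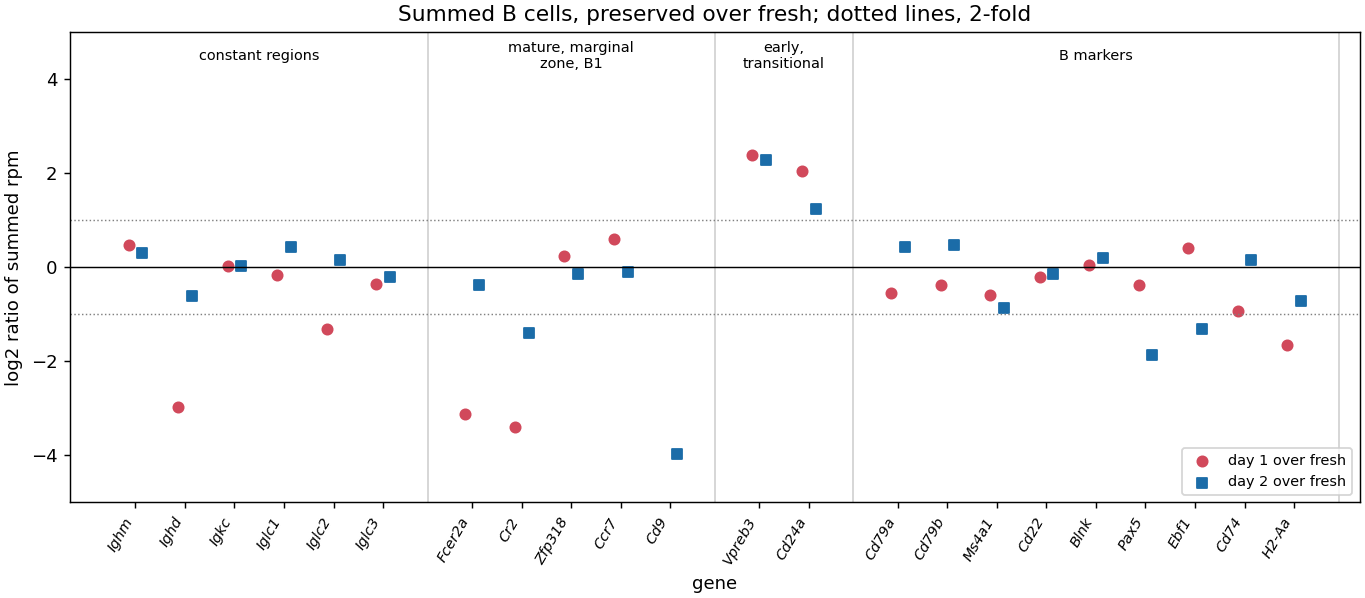
Log2 ratio of summed rpm in B cells of day 1 (circles) and day 2 (squares) over fresh B cells, for the 6 constant region genes and for the genes of 3 lists with at least 50 reads in both sums. Dotted lines mark 2-fold, and Cd79a and Cd79b among the B markers are the genes that chose the cells. Ighd lies with Fcer2a and Cr2 near the bottom at day 1, and Igkc lies on the line of no change at both times.

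From cell to cell, the Ighd share ran with the level of Fcer2a (Spearman's rho 0.68 over 77 cells, 0.41 within fresh, 0.40 within day 1 and 0.42 within day 2 cells). Zfp318 had 0.49 over all, with 0.50, 0.38 and 0.28 within these timepoints. Of the general B cell genes, H2-Aa had 0.61 over all, but 0.07 within fresh cells against 0.56 and 0.61 within day 1 and day 2. Cd74 had 0.51 over all, with 0.35, 0.40 and 0.34 within these timepoints. The rest of that list was lower, with Cd22 at 0.25, Cd79a at 0.13, Ms4a1 at 0.10, Pax5 at 0.07, Blnk at -0.01, Ebf1 at -0.12 and Cd79b at -0.23. The other mature genes read in at least 3 cells had lower values, with 0.35 for Cr2, 0.15 for Ccr7 (-0.19 within fresh cells) and 0.14 for Cd9, and Bhlhe41 had -0.19. The early genes Cd24a and Vpreb3 were negative over all cells, with -0.35 and -0.26, though within fresh cells Vpreb3 had 0.36.

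Igkc, the constant region of the kappa light chain, had levels that overlapped at every timepoint. Fresh cells ran from 1004 to 5616 rpm with a median of 2898, day 1 cells from 425 to 7970 with a median of 2732, and day 2 cells from 1199 to 7948 with a median of 2986. At 6 h the range was 61.4 to 6019 rpm and the median 3935. Few cells lay outside the fresh range at day 1 (2 of 14) or day 2 (3 of 30), but 3 of the 9 cells of 6 h did, and 8 of those 9 were above the fresh median. The 5 day 3 cells had 49.9, 2505, 3172, 4779 and 5144 rpm and the 2 day 4 cells 1390 and 3200.

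Reads of lambda constant genes were found beside those of Igkc in most B cells. Of the 77 cells, 68 had at least 10 lambda reads, and all 77 had at least 10 reads of Igkc. When a call of kappa or lambda required 90% of the light chain reads, 14 cells were kappa (18.2%, 10.3 to 28.6), 63 had reads of both kinds beyond that limit (81.8%, 71.4 to 89.7) and 0 were lambda, for which the upper limit is 4.68%. The median share of lambda in light chain reads was 34.1%, and the highest was 74.7%, in the day 2 cell in well D10. In 16 cells lambda reads outnumbered those of Igkc.

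By timepoint, the 17 fresh cells had lambda shares from 17.9% to 61.4% with a median of 39.1%, so none was called kappa. After 6 h the median was 26.2% and 3 of 9 cells were called kappa. Day 1 had a median of 21.8% with 5 of 14 kappa cells, and day 2 a median of 38.97% with 3 of 30. The 5 day 3 cells had 5.52%, 26.3%, 30.1%, 35.1% and 53.5%, and both day 4 cells had no read of a lambda constant gene. In summed rpm per kilobase, Igkc stood 1.80 times above the 3 lambda genes together over all B cells, 1.59 times in fresh cells and 1.56 times in those of day 2, but 2.51 times after 6 h and 2.69 times after 1 day.

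The variable regions of the same cells did not share this mixture. At least 10 reads of kappa variable genes (Igkv) were found in all 77 cells, but at least 10 of lambda variable genes (Iglv) in only 19. The sums were 84436 Igkv and 3856 Iglv reads, a ratio of 21.9 (43.3 without the day 1 cell in well D7, and 4.30 at day 1 to 80.3 at 6 h), against 190634 Igkc and 106901 lambda constant reads, a ratio of 1.78 in reads. The low ratio of day 1 rests on the cell in well D7, which held 1914 of the 1926 Iglv reads of that timepoint. In 50 of the 77 cells a single Igkv gene held over 90% of the Igkv reads. Of the Iglv genes, Iglv3 passed 10 reads in 17 cells, Iglv1 in 4 and Iglv2 in none.

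A single cell carried a large number of Iglv reads. The day 1 cell in well D7 had 1914 reads of Iglv1, 1986 of Iglc3, 225.5 rpm of Iglc2 and none of Iglc1, beside 2020 of Igkc and 356 of Igkv, so it held both kinds of constant and variable region. The next highest was the day 2 cell in well D2, with 320 Iglv reads, which is also the cell with Cd3e and C1qb reads.

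**Figure D4:**
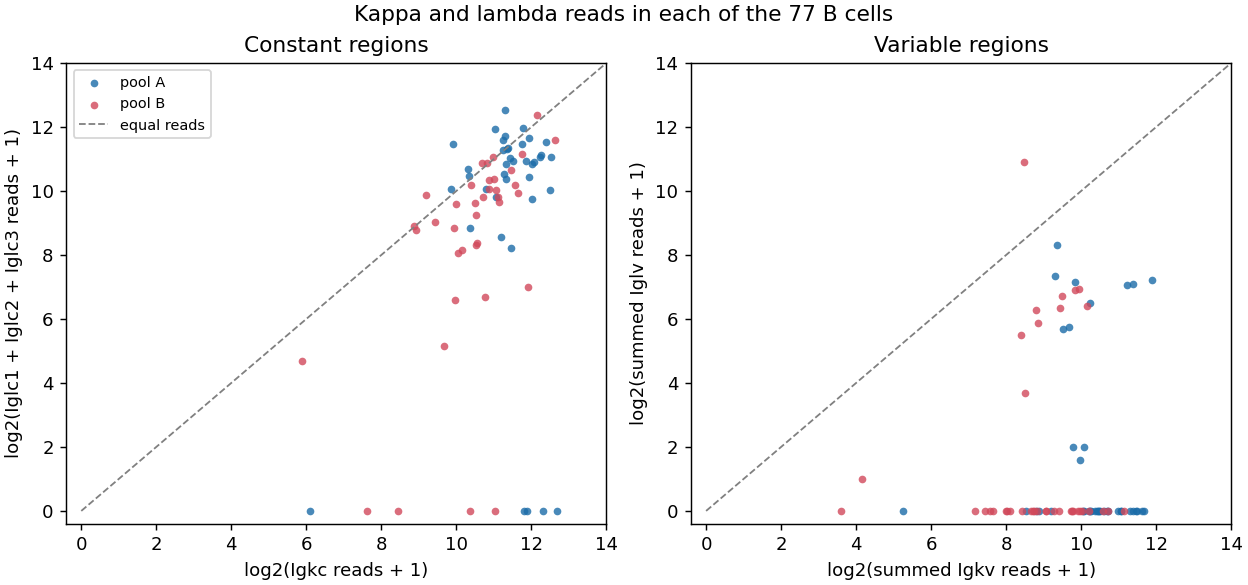
Kappa against lambda reads in each of the 77 B cells, as log2(reads + 1), for constant regions (left) and variable regions (right), coloured by library pool, with a dashed line at equal reads. Constant region reads of many cells crowd near the line, while 9 cells have no lambda constant read and lie on the floor. On the right nearly every cell lies far below the line and 1 cell lies above it.

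The lambda genes differed among themselves in how they spread over cells. Iglc2 was the highest of the 3 in 46 cells, Iglc3 in 19 and Iglc1 in 3, and 28 cells had at least 10 reads of all 3. In fresh cells Iglc2 ran from 0 to 2647 rpm with a median of 1244, Iglc3 from 34.3 to 1477 with a median of 639, and Iglc1 from 0 to 585 with a median of 110. The 3 genes together had a median of 2020 rpm in fresh cells and 668 rpm at day 1, where 11 of 14 cells lay below the fresh median and 6 below the lowest fresh cell. At day 1 the medians were 161.3 rpm for Iglc2, 140 for Iglc3 and 0 for Iglc1, and at day 2 they were 1218, 661 and 101.9. Iglc2 was lower than the fresh median in 10 of 14 day 1 cells, yet its range there, 0 to 1426 rpm, fell within that of the fresh cells. Iglc3 reached 2765 rpm at day 1, in the cell in well D7 that also had the Iglv1 reads, and this cell gave 46.4% of all day 1 Iglc3 reads.

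Igkc ran with Ighm from cell to cell (rho 0.38 over 77 cells, 0.43 at day 1 and 0.48 at day 2, but 0.01 in fresh cells). Igkc and the lambda sum had rho 0.23 over all cells, 0.46 in fresh, 0.44 at day 1 and 0.02 at day 2, where Pearson's r was -0.29.

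Over all 502 cells, the genes reported here that were most like Ighm, Ighd, Igkc and the lambda sum were mostly B cell genes, by Pearson's r on log2(rpm + 1) among 12428 genes read in at least 10 cells. For Igkc they were Cd79a (0.98), Cd79b (0.90), Ly6d (0.89), Ms4a1 (0.81) and Fcmr, the IgM Fc receptor (0.79). For Ighd they were Cd79a (0.88), Fcmr (0.82), Fcer2a (0.80), Cd79b (0.79) and Ly6d (0.77). The lambda sum had Cd79a (0.92), Ms4a1 (0.85), Fcmr (0.84), Cd79b (0.84) and Ly6d (0.83). The values for Ighm were lower, with Cd79b at 0.55, Cd79a at 0.54, H2-Ab1 at 0.50, Ly6d at 0.49 and Cd74 at 0.47. Cells that share a 0 on both genes weigh heavily in these values.

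Reads of Ighm, unlike those of the other members, were common outside the B cells. Of the 425 other cells, 210 had an Ighm read (49.4%, 44.6 to 54.3), and 190 had at least 10. Their median was 940 rpm among cells with a read, against 7506 rpm in B cells, and the highest value was 15365 rpm. Other cells held 28.5% of all Ighm reads in the data, but 0.142% of the Igkc reads, 0.376% of the Ighd reads and 0.292% of the lambda reads. B and other cells overlapped on Ighm, with 71 of the 77 B cells below the highest other cell, the shallow 6 h cell in well D7. Without that cell the next highest was 7523 rpm and 39 of the 77 lay below it.

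The other members were rarely read outside the B cells. Igkc was read in 11 of 425 cells (2.59%, 1.30 to 4.58), Ighd in 10, Iglc2 in 6, Iglc3 in 2 and Iglc1 in 1. For Igkc the lowest B cell had 49.9 rpm and only 4 other cells lay above it. Of the 210 other cells with Ighm, 9 had an Igkc read and 12 an Ighv read. In B cells Igkc reads came to 40.7% of Ighm reads, whereas in the other cells with Ighm they came to 0.144%. Heavy chain variable genes (Ighv) came to 9.72% of Ighm reads in B cells and 0.0644% in the others with Ighm. The members thus did not keep the ratio they had in B cells.

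Ighm outside the B cells was spread unevenly over kinds of cell, taken here by at least 5 reads of a marker. Of cells with the macrophage gene C1qb, 81.9% had an Ighm read (74.1 to 88.2), against 44.3% of cells with the T cell gene Cd3e (34.7 to 54.3), 33.3% of cells with the neutrophil gene S100a8 (20.4 to 48.4) and 30.3% of cells with none of these (22.99 to 38.5). The median totals of these cells were 616700, 708410, 716700 and 654280 in the same order. By pool the share among cells with C1qb was 68.97% in A and 87.5% in B, and among cells with Cd3e 46.7% and 43.1%. Igkc stayed low in each, with a read in 3.15% of cells with C1qb and 3.77% of cells with Cd3e, and in 0 of 48 cells with S100a8 (upper limit 7.40%).

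Across timepoints the share of other cells with an Ighm read lay between 42.4% (day 4) and 49.2% (day 1), except for 67.5% on day 3. The fresh value was 45.3%, and those of 6 h and day 2 were 44.8% and 43.8%. Day 3 also had the most cells with C1qb, 55 of its 77 other cells, of which 89.1% had Ighm, as had 15 of the 16 fresh cells with C1qb. The share among cells with C1qb was 81.8% at day 1 (18 of 22) and 71.4% at day 4 (10 of 14), but 60% at 6 h (3 of 5) and at day 2 (9 of 15). At day 2 that was close to the 56.3% of cells with Cd3e (9 of 16). Thinning each cell to 100000 counts, which left out 8 cells, gave 46.5% for Ighm over 417 other cells and 0.719% for Igkc, and the gap between the genes remained. In the cells with no read of either Cd79a or Cd79b, 47.4% had Ighm and 1.32% had Igkc.

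**Figure D5:**
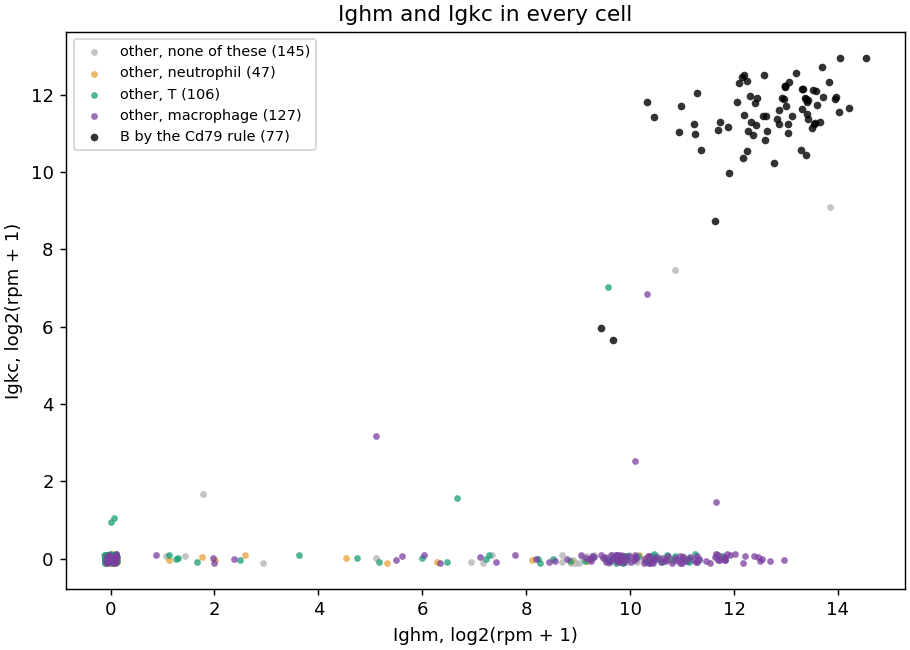
Ighm against Igkc in every cell, as log2(rpm + 1), with other cells coloured by the marker they carry (at least 5 reads of C1qb, Cd3e or S100a8) and moved by a small random amount so that points do not hide each other. The 77 B cells form a cloud at the upper right, and the other cells lie along the floor of the Igkc axis from 0 to high Ighm.

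A few other cells stood out singly, and the rule for naming took those at or above the B cell median of a member where that median was over 0. The 6 h cell in well D7 had 15365 rpm of Ighm, but from only 329 reads among 21412, with 11 reads of Igkc, 32 of Cd79b and none of Cd79a. The day 3 cell in well F7 had 6272 Ighm reads (7523 rpm) beside 1216 of C1qb and no read of another member or of Cd79. The day 1 cell in well C10 had 299 reads of Iglc3, 89 of Igkc, 913 of Ighm and 12 of Iglv3, with 1 read of Cd79b. Chosen after its values were seen, the day 4 cell in well E11 of pool C had 125.1 rpm of Igkc and 1047 reads of Ighm together with 836 of Cd3e and no Cd79 read. Pairs of index sequences recurred between pools but not within a pool, and no pair of cells had identical counts. The part of index sharing, of free RNA and of doublets in these reads was not tested.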

How the data were processed

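Cd45+ single cells were sequenced with a SmartSeq2 protocol. The authors trimmed reads to 75 bases, removed duplicates, aligned them with STAR (GRCm38) and ran HTSeq in its intersection-strict mode, without regard to strand. Cells with too few reads were dropped, and raw counts of 502 cells were deposited. Versions are not given in the sources at hand. In the deposited count table, 97 of 46700 rows (spike-ins and a vector, 0.14% of counts) name no gene and were left out.

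Counts were divided by the gene total of the cell (rpm), with log2(rpm + 1) for correlations. All reads of Iglc1, Iglc2 and Iglc3 count as lambda. Groups came from the timepoint label and the pool number. Shares have exact Clopper-Pearson 95% intervals, which cover counting error only, since the reads carry no molecular identifiers and may be copies of 1 molecule. Sums over at least 10 cells were compared as log2 ratios over genes with at least 50 reads in both. The code was tested on simulated data. Alternatives used edgeR 4.0.16 (TMM) and DESeq2 1.42.0 size factors, other minimums, thinning, and exon lengths. Coordinates and sequences are from GENCODE annotation of GRCm38, read with Biopython 1.88. The members and lists were chosen with earlier results of these data known. 2 genes of the lists are not reported here and were left out of list counts, medians and likeness ranks. Named were the members, the genes of the fixed lists, the 5 genes most like Ighm, Ighd, Igkc or the lambda sum, and other cells at or above a B cell median over 0 of a member. Analysis ran in Python 3.11.15, and the edgeR and DESeq2 size factors in R 4.3.3.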

Additional observations from a re-analysis of the deposited data

How the results depend on the processing

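Of the alternative values of the main results, 92 stayed within the tolerance set for them (the counting interval for shares, 5 percentage points for the Ighd share, 0.5 for log2 ratios) and 4 moved. With reads summed over cells, the Ighd share was 22.01% in place of a median of 16.95% over all B cells, and 5.95% in place of 0.453% at day 1. The share of other cells with an Igkc read fell from 2.59% to 0.719% after thinning to 100000 counts and to 0.706% with at least 10 reads; the cause was not tested beyond the fewer reads these settings count. Without the 3 B cells that had at least 5 reads of Cd3e or C1qb, an alternative chosen after seeing the data, the fresh Ighd share was 39.9%, that of day 1 0.453% and that of day 2 25.4%. Over all alternatives the Ighd log2 ratio stayed between -3.40 and -2.89 at day 1 and between -0.91 and -0.59 at day 2, and that of Ighm between 0.16 and 0.56 and between 0.02 and 0.39. The Igkc ratio, between -0.23 and 0.10 at day 1 and between -0.28 and 0.10 at day 2, took either sign. The lowest day 1 values of all 3 came from leaving out the preserved cell with most reads of the gene, also chosen after seeing the data, which moved Iglc1 at day 1 from -0.17 to -2.83 and Iglc3 from -0.35 to -1.11. All fresh cells were kept in that alternative, so it could only lower a ratio. Day 2 could not be set against fresh B cells of its own pool, which had none. No paired analysis was possible because a timepoint is 1 sample and the result comes from no test. With 2 B cells at day 4 and 5 at day 3, shares there have intervals too wide for any order.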
